A study of Homo sapiens with 9 samples.

Results

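The genes described here are 34 genes of oxygen sensing and of the response to low oxygen: the subunits of the hypoxia-inducible factors (HIFs), the enzymes and adaptor that hold those factors in check, and HIF-linked genes outside glycolysis. They were chosen by gene symbol from a fixed list, drawn up with earlier results of these data known. Of the 34 genes, 34 were found among the 25084 genes of the table. The cells were LAN5, an established human neuroblastoma line, so all values describe a tumour line in culture and not normal sympathetic tissue. RNA was taken from cells that had received a small interfering RNA (siRNA, a short RNA that leads the cell to degrade a transcript it pairs with), delivered by electroporation in the form of nucleofection, and had then grown in regular medium for 72 h. The 3 groups, of 3 libraries each, were the control siRNA (siCTR), the siRNA labelled siMYCN_2 against MYCN and the siRNA labelled siHAND2_3 against HAND2, called siMYCN and siHAND2 below. All 3 groups were the same line under the same protocol, and the labels name a single siRNA for each target, so effects of the siRNA sequence on other transcripts cannot be told apart from effects of the target. The labels give no oxygen level and do not say whether the replicates were separate cultures, so p-values measure the spread between these libraries, which may be technical. The study asked which genes MYCN and HAND2, both helix-loop-helix transcription factors, regulate in these cells.

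When oxygen is present, the EGLN dioxygenases hydroxylate prolines of the HIF alpha subunits, HIF1A and EPAS1 (also called HIF-2 alpha), and the VHL ubiquitin ligase then marks the alpha subunit for degradation. A further dioxygenase, HIF1AN, hydroxylates an asparagine that the alpha subunit needs to recruit its coactivators. When oxygen is scarce the alpha subunit escapes, pairs with ARNT and switches on genes for glucose use, mitochondrial removal, blood vessel growth and matrix processing. EGLN1 and EGLN3 are themselves HIF targets, and EPAS1 is known for its role in sympathetic and chromaffin lineage cells and their tumours. HIF activity is set largely at the level of the protein, which was not measured here.

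Levels are in CPM, the reads of a gene scaled to a fixed total of 1000000 per library. From the steps between low values, 1 CPM stood for about 21.1 to 32.7 reads, depending on the library. MYCN was at 70.0% of its siCTR mean in siMYCN and at 49.6% in siHAND2, and HAND2 was at 114% and 54.2%, each with the 3 knockdown libraries on 1 side of the 3 siCTR libraries. A lower HAND2 transcript and a lower MYCN transcript therefore cannot be told apart in siHAND2. Of 12 sympathetic neuroblast markers such as DBH and CHGB, 12 had a mean of at least 1 CPM in each group. Their summed level was 2797 to 2960 CPM in siCTR, 3431 to 3516 CPM in siMYCN and 3047 to 3223 CPM in siHAND2. Of the 12, 10 rose and none fell in siMYCN, where 24.5% of all tested genes rose and 11.4% fell. In siHAND2 5 of the 12 rose and 4 fell, where 18.1% and 11.8% of all did. The part of these shifts in the results was not tested. Of the markers found in the table, none of 5 for Schwann cells, none of 6 for endothelium and none of 3 for immune cells reached a mean of 1 CPM in any group, and 1 of 3 epithelial markers did. Mesenchymal markers were present and are given beside EPAS1.

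Each log2 change is given with its standard error (SE). Differences were tested on log2(CPM + 1) with limma over all 14495 genes that had at least 1 CPM in at least 3 libraries. A gene passed the test at a Benjamini-Hochberg adjusted p below 0.05 over all tested genes, and "rose" and "fell" are used for genes that passed. Of the 34 genes, 31 were tested. CA9, CA12 and ANGPTL4 were too low, and PPP1R3C entered with exactly 3 libraries above 1 CPM, 2 of siCTR and 1 of siHAND2.

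Falls outnumbered rises among the HIF-linked genes in both knockdowns, whereas rises outnumbered falls among all tested genes. In siMYCN, 12 of 31 fell and 5 rose, where 11.4% of all tested genes fell, 24.5% rose and 35.9% passed in either direction. In siHAND2, 16 of 31 fell and 6 rose, where 11.8% of all tested genes fell, 18.1% rose and 29.9% passed in either direction. These shares over all tested genes also belong beside the counts of smaller groups given below. The median log2 fold change over the 31 genes was -0.09 in siMYCN and -0.21 in siHAND2, beside 0.06 and 0.04 over all tested genes. The 2 comparisons share the siCTR libraries, so their values are not independent. The genes were listed with earlier results of these data known, so these counts are descriptive only. The falls in siMYCN include PPP1R3C, which entered the test through no siMYCN library. In the fit of siMYCN and siCTR alone, which left PPP1R3C out, 11 of 30 fell and 5 rose. Without siMYCN replicate 3, 11 of 31 passed in siMYCN, 3 of them higher. All siMYCN libraries were above all siCTR libraries for 5 of the 31 genes and below them for 11 (33.4% and 16.1% of all tested genes), and for siHAND2 the counts were 7 and 18 (25.8% and 16.6%). After median-ratio rescaling of the libraries the counts were 3 rises and 16 falls in siMYCN, and 2 rises and 18 falls in siHAND2, while 49.6% and 42.0% of all genes that passed rose in place of 68.3% and 60.6%. The plot of changes against the control siRNA shows the 31 genes side by side.

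**Figure D1:**
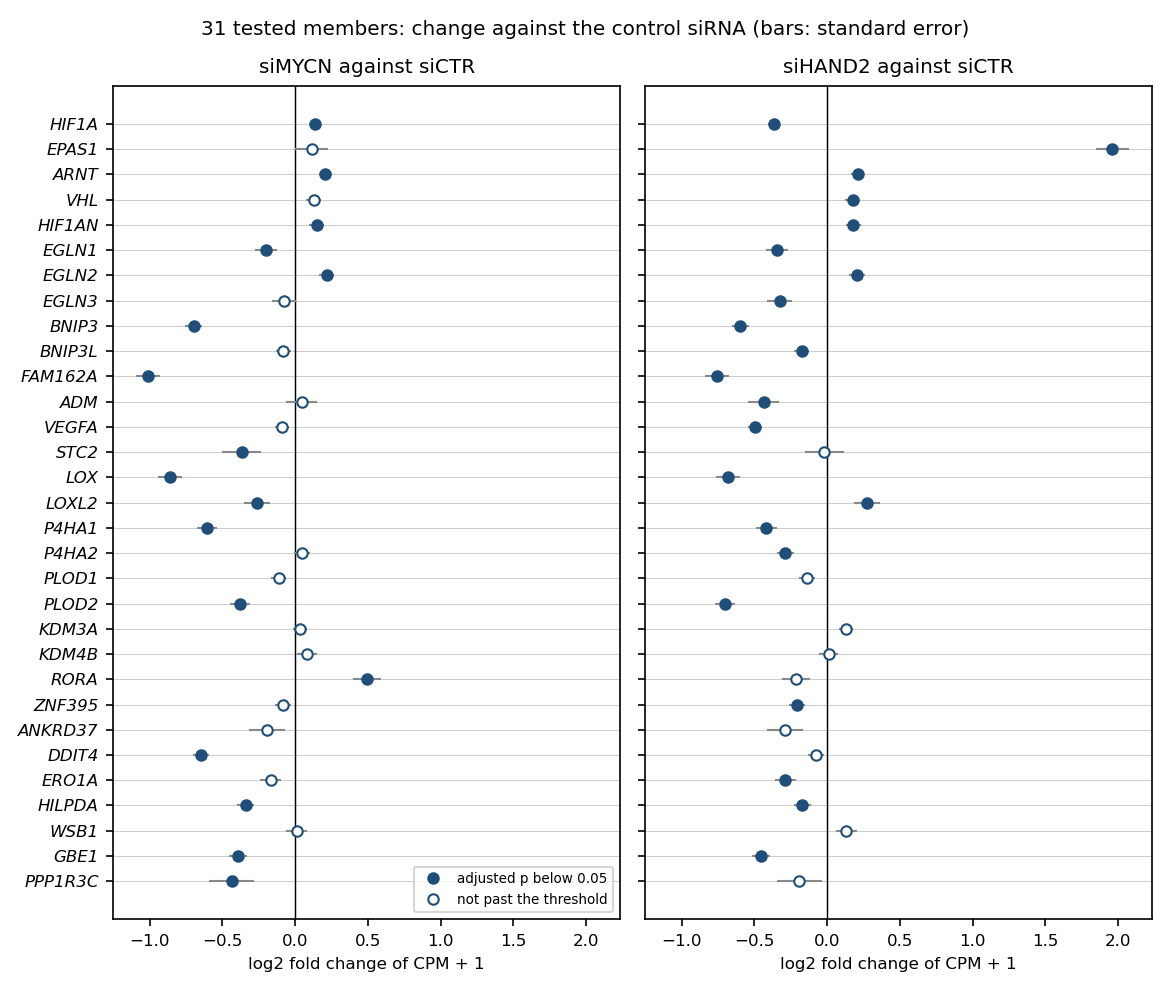
Log2 fold change of CPM + 1 (x axis, the same in both panels) for the 31 tested genes (rows), siMYCN against siCTR on the left and siHAND2 against siCTR on the right; points are limma estimates, bars are SEs, and filled points passed an adjusted p of 0.05. FAM162A lies furthest to the left in both panels, at -1.01 and -0.76, and EPAS1 furthest to the right in siHAND2, at 1.96.

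The alpha subunits moved in opposite directions in siHAND2. HIF1A (chromosome 14, 61695513 to 61748259, plus strand, GRCh38), the widely expressed alpha subunit, stood at 509, 505 and 496 CPM with siCTR, at 549, 542 and 567 with siMYCN and at 386, 387 and 396 with siHAND2. The 3 groups did not overlap, with siMYCN highest and siHAND2 lowest. With siHAND2 it fell to 77.4% of the siCTR mean, a log2 change of -0.37 (SE 0.04, limma, adjusted p = 1.42e-06). It rose by 0.13 in siMYCN (SE 0.04, adjusted p = 0.0103), and this call was lost after median-ratio rescaling (0.07, adjusted p = 0.146) and without siMYCN replicate 3 (0.12, adjusted p = 0.0537). The gene overlaps the antisense genes HIF1A-AS1 and HIF1A-AS3. VHL, HIF1AN, BNIP3, BNIP3L, FAM162A, LOX, LOXL2, P4HA2, RORA, CA9 and ANKRD37 likewise overlap other genes on the opposite strand. The use of strand in counting is not given in the sources used here.

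EPAS1 (chromosome 2, 46293667 to 46386697, plus strand), the other alpha subunit, stood at 1.41, 1.72 and 1.66 CPM with siCTR and at 2.30, 1.50 and 1.68 with siMYCN, but at 9.73, 8.88 and 8.68 with siHAND2. The siHAND2 libraries thus stood far above all 6 others, while the siMYCN and siCTR libraries overlapped. The siHAND2 mean of 9.10 ± 0.56 CPM (SD, n = 3 libraries) was 570% of the siCTR mean of 1.60 ± 0.167 CPM. EPAS1 rose by 1.96 on the log2(CPM + 1) scale (SE 0.11, limma, adjusted p = 2.13e-09), the largest change of the 31 genes in either knockdown. Its size on this scale depended on the pseudocount, with 2.44 at 0.1 CPM and 1.10 at 5 CPM. In siMYCN its change was 0.11 (adjusted p = 0.478). About 35 to 57 reads lay behind each siCTR and siMYCN value and 223 to 296 behind each siHAND2 value.

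Mesenchymal markers moved with EPAS1 in siHAND2. The summed level of 10 fibroblast or mesenchymal markers was 501 to 511 CPM in siCTR, 578 to 607 CPM in siMYCN and 888 to 988 CPM in siHAND2. Of the 9 tested, 7 rose and 1 fell in siHAND2, and 7 rose and none fell in siMYCN. The marker that fell was THY1, from 65.4 CPM in siCTR to 56.8 CPM in siHAND2 (limma, adjusted p = 0.027). TWIST1 measured 122 CPM in siCTR and 121 CPM in siHAND2. The collagen-binding proteoglycan gene DCN had the largest change of the 9 in siHAND2. DCN measured 0.431 ± 0.0794, 1.30 ± 0.274 and 11.0 ± 0.781 CPM in siCTR, siMYCN and siHAND2 (SD, n = 3 libraries each). The part of this shift in the EPAS1 result was not tested, and in bulk RNA more cells of a type and more RNA per cell cannot be told apart.

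ARNT (chromosome 1, 150809713 to 150876708, minus strand), the common partner of both alpha subunits, stood at 41.6, 40.4 and 42.1 CPM with siCTR, at 48.0, 47.5 and 48.2 with siMYCN and at 47.7, 48.3 and 48.0 with siHAND2. All 6 knockdown libraries lay above all 3 siCTR libraries. The rise was 0.21 in siMYCN (SE 0.05, limma, adjusted p = 0.00197) and 0.21 in siHAND2 (SE 0.05, adjusted p = 0.00219), and both calls held under all 18 alternatives. The direct comparison of the knockdowns gave 0.003 (adjusted p = 0.97).

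The oxygen sensors split by member. EGLN1 and EGLN3, which HIF itself induces, were lower in siHAND2, whereas EGLN2, VHL and HIF1AN were slightly higher. EGLN1 (chromosome 1, 231363751 to 231422287, minus strand), the main prolyl hydroxylase acting on HIF1A, stood at 40.7, 39.7 and 33.7 CPM with siCTR, at 31.8, 36.3 and 30.9 with siMYCN and at 28.7, 29.5 and 30.8 with siHAND2. The siHAND2 libraries lay below all 6 others, narrowly at the closest, and siCTR replicate 3 fell within the siMYCN range. EGLN1 fell by 0.34 in siHAND2 (SE 0.07, limma, adjusted p = 0.00211). Its fall of 0.20 in siMYCN (adjusted p = 0.0443) was lost in 7 of 18 alternatives, among them the fits without siCTR replicate 1 or 2, siMYCN replicate 1 or 3 or siHAND2 replicate 2, with values from -0.28 to -0.15 when 1 library was left out. Its interval overlaps AL445524.2 on the same strand, and how shared reads were counted is not given in the sources used here.

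EGLN3 (chromosome 14, 33924227 to 34462774, minus strand), a strongly hypoxia-inducible member of the family, stood at 9.20, 8.76 and 8.45 CPM with siCTR, at 9.26, 8.05 and 7.61 with siMYCN and at 6.45, 6.97 and 7.01 with siHAND2. All siHAND2 libraries were below all others, and the siMYCN libraries spread over the siCTR range. EGLN3 fell by 0.33 in siHAND2 (SE 0.08, limma, adjusted p = 0.00763), and its change in siMYCN was -0.08 (adjusted p = 0.508). Its interval overlaps SPTSSA on the same strand. Those of HIF1A, LOXL2, RORA, ZNF395 and HILPDA likewise overlap other genes on the same strand, with the same limit on shared reads as for EGLN1.

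EGLN2 (chromosome 19, 40798996 to 40808434, plus strand), the family member least tied to hypoxia, stood at 50.5, 54.4 and 55.8 CPM with siCTR, at 64.1, 62.9 and 59.9 with siMYCN and at 64.4, 63.1 and 57.8 with siHAND2. All knockdown libraries were above all siCTR libraries. It rose by 0.22 in siMYCN (SE 0.05, limma, adjusted p = 0.00539) and by 0.20 in siHAND2 (SE 0.05, adjusted p = 0.00946), the latter call being lost after median-ratio rescaling (0.15) and without siCTR replicate 1 (0.16). Its interval overlaps the readthrough gene RAB4B-EGLN2.

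VHL (chromosome 3, 10141778 to 10153667, plus strand), the substrate-binding part of the ubiquitin ligase, stood at 90.8, 84.8 and 85.0 CPM with siCTR, at 100.7, 87.5 and 96.9 with siMYCN and at 99.3, 96.4 and 99.1 with siHAND2. Only the siHAND2 libraries were all above siCTR. HIF1AN (chromosome 10, 100529072 to 100559998, plus strand) stood at 42.3, 39.7 and 40.7 CPM with siCTR, at 46.1, 43.9 and 46.1 with siMYCN and at 47.6, 47.7 and 44.04 with siHAND2, with no overlap between siCTR and either knockdown. Both genes rose by 0.18 in siHAND2 (limma, adjusted p = 0.0169 for VHL and 0.0139 for HIF1AN), and HIF1AN rose by 0.15 in siMYCN (adjusted p = 0.0328). VHL changed by 0.13 in siMYCN (adjusted p = 0.0678) and passed there without siMYCN replicate 2 (0.18). The 3 rises were lost after median-ratio rescaling, at 0.12 for VHL and for HIF1AN in siHAND2 and 0.09 for HIF1AN in siMYCN. They were also lost without siCTR replicate 2 (0.16, 0.16 and 0.13), the VHL call also without siCTR replicate 3 (0.16), and the HIF1AN calls also without siHAND2 replicate 2 (0.16) in siHAND2 and without siCTR replicate 3, siMYCN replicate 1 or siMYCN replicate 3 (0.14 each) in siMYCN. The plot of HIF subunits and sensors gives every library.

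**Figure D2:**
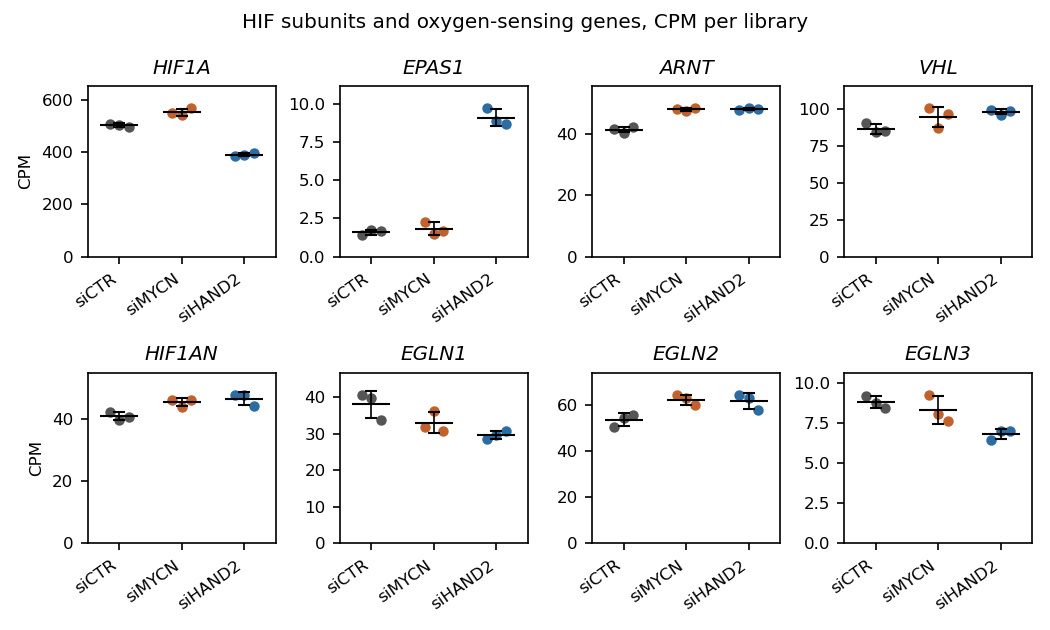
CPM (y axes, from 0, a separate scale for each gene) of the 3 HIF subunits and 5 oxygen-sensing genes in the 9 libraries; dots are libraries, horizontal lines are means and bars are SDs over 3 libraries. EPAS1 sits between 8.68 and 9.73 CPM in siHAND2 and at most at 2.30 CPM elsewhere, while HIF1A is lowest in siHAND2.

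Promoter sequence is shown for the 3 genes with promoters on file that fell most in either knockdown and for EPAS1, which rose most, because HIF and MYC family proteins bind short sites that share letters. The core of the HIF site is ACGTG or GCGTG, and MYC family dimers favour CACGTG, which contains ACGTG and reads the same on both strands. The RefSeq table (GRCh38.p14) matched 28 of the 34 genes. The 250 bases before the start site are printed 5′ to 3′ along the gene, with every ACGTG or GCGTG on either strand in capitals. FAM162A is at chr3:122383932-122384181 (plus strand), LOX at chr5:122078260-122078509 (minus strand), PLOD2 at chr3:146161185-146161434 (minus strand) and EPAS1 at chr2:46297157-46297406 (plus strand). The starts for PLOD2 and EPAS1 lie 2469 and 3740 bases inside the gene intervals of the expression table, so other starts may also have been read.
FAM162A: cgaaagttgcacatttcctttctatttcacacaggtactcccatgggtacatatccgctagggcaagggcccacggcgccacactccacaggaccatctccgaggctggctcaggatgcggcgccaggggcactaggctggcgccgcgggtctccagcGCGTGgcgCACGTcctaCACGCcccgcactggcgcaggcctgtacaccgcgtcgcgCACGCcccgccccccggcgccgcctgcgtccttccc
LOX: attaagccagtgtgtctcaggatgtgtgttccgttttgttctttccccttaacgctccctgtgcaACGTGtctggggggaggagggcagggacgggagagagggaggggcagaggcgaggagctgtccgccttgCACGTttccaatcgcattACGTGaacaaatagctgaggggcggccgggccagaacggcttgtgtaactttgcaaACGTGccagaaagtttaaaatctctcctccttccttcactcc
PLOD2: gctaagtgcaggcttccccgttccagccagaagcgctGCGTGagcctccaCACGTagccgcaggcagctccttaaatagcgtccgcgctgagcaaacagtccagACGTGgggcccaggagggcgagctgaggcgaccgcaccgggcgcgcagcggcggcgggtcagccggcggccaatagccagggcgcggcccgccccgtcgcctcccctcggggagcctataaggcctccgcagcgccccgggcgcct
EPAS1: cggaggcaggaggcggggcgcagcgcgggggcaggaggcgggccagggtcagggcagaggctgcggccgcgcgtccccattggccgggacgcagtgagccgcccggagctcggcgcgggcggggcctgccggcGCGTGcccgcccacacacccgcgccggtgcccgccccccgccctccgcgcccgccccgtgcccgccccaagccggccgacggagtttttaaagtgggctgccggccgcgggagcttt
The FAM162A window held 4 such matches, LOX 4, PLOD2 3 and EPAS1 1, and none of the 4 windows held CACGTG. Among windows not printed, that of RORA, which rose in siMYCN, held 0 matches. The listed start for RORA lies 601772 bases inside the gene interval of the expression table. Its window therefore does not cover the gene start of that table, and other starts may have been read. The window of EGLN2, which rose in both knockdowns, held 2 matches and 1 CACGTG. BNIP3, which fell in both, also had CACGTG in its window. So did PPP1R3C, which fell in siMYCN only, and ANKRD37, KDM4B and WSB1, which passed in neither knockdown. Over all 28 genes, 82.1% had ACGTG or GCGTG before at least 1 listed start, beside 47.4% of the 27305 genes of the RefSeq table. The 28 were listed for their links to HIF, so a higher share may follow from the choice of list. The RefSeq genes are not limited to those tested here. CACGTG was found in 6 of the 28 (21.4%) and in 7.73% of all. Base composition differed too, with a median of 68.6% G or C over the 28 genes and 58.0% over all genes, and every core contains CG. A match is a description of letters and does not show binding.

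Of 3 mitochondrial genes, 2 fell in siMYCN and 3 in siHAND2, and FAM162A gave the largest fall of the 31 genes in both. FAM162A (chromosome 3, 122384176 to 122412334, plus strand), a HIF-induced mitochondrial protein linked to cell death whose promoter is printed above, stood at 91.4, 98.6 and 95.1 CPM with siCTR, at 43.0, 50.7 and 46.5 with siMYCN and at 49.7, 53.2 and 65.6 with siHAND2. All 6 knockdown libraries lay far below siCTR, and siHAND2 replicate 3 was the highest of the 6. It fell by 1.01 in siMYCN (SE 0.08, limma, adjusted p = 1.69e-07), leaving 49.2% of the siCTR mean, and by 0.76 in siHAND2 (SE 0.08, adjusted p = 2.49e-06), leaving 59.1%. The gene overlaps WDR5B on the opposite strand.

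BNIP3 (chromosome 10, 131966455 to 131982013, minus strand), a receptor for the removal of mitochondria by autophagy and a classic HIF target, stood at 202, 199 and 193 CPM with siCTR, at 119, 129 and 117 with siMYCN and at 122, 125 and 145 with siHAND2. Again the 6 knockdown libraries lay below siCTR without overlap. BNIP3 fell by 0.70 in siMYCN (SE 0.06, limma, adjusted p = 2.18e-07) and by 0.60 in siHAND2 (SE 0.06, adjusted p = 7.33e-07). Its relative BNIP3L had means of 202 ± 9.49 CPM in siCTR, 191 ± 7.04 CPM in siMYCN and 179 ± 10.1 CPM in siHAND2 (SD, n = 3 libraries). BNIP3L fell by 0.18 in siHAND2 (limma, adjusted p = 0.0125), a call lost without siCTR replicate 1 (-0.14) or siHAND2 replicate 2 (-0.15) and with no intensity trend, and it changed by -0.08 in siMYCN (adjusted p = 0.219). The latter passed after median-ratio rescaling (-0.14) and quantile normalization (-0.15), and was -0.04 without siCTR replicate 1.

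Of 6 genes for collagen processing, LOX, P4HA1, PLOD2 and LOXL2 fell in siMYCN and none rose. In siHAND2 LOX, P4HA1, P4HA2 and PLOD2 fell and LOXL2 rose. LOX (chromosome 5, 122063195 to 122078360, minus strand), the secreted oxidase that cross-links collagen and elastin, stood at 17.0, 18.2 and 16.2 CPM with siCTR, at 8.37, 9.16 and 9.39 with siMYCN and at 9.18, 10.2 and 11.5 with siHAND2. No knockdown library reached the lowest siCTR library. LOX fell by 0.86 in siMYCN (SE 0.08, limma, adjusted p = 1.21e-06), leaving 52.4% of the siCTR mean, and by 0.68 in siHAND2 (SE 0.08, adjusted p = 1.22e-05), leaving 60.3%. This fall in siHAND2 stood beside the rise of the mesenchymal markers given above.

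P4HA1 (chromosome 10, 73007217 to 73096974, minus strand) encodes a catalytic subunit of the collagen prolyl hydroxylase. It stood at 82.4, 85.3 and 76.3 CPM with siCTR, at 51.4, 56.6 and 51.6 with siMYCN and at 56.5, 57.1 and 68.9 with siHAND2, with siHAND2 replicate 3 nearest to the siCTR libraries but still below them. P4HA1 fell by 0.60 in siMYCN (SE 0.07, limma, adjusted p = 6.22e-06) and by 0.42 in siHAND2 (SE 0.07, adjusted p = 0.000251). P4HA2 (chromosome 5, 132191838 to 132295315, minus strand), the alternative subunit, stood at 22.3, 23.3 and 22.2 CPM with siCTR, at 24.3, 22.5 and 23.3 with siMYCN and at 18.8, 17.9 and 18.2 with siHAND2. Here only the siHAND2 libraries were low: the fall was 0.29 (SE 0.06, adjusted p = 0.00129), and the change in siMYCN was 0.05 (adjusted p = 0.558), with a negative sign after both other scalings.

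PLOD2 (chromosome 3, 146069440 to 146163653, minus strand), the lysyl hydroxylase of collagen telopeptides, stood at 98.8, 95.7 and 86.6 CPM with siCTR, at 69.0, 72.9 and 73.3 with siMYCN and at 54.3, 52.4 and 65.5 with siHAND2. The 3 groups did not overlap and siHAND2 was lowest. PLOD2 fell by 0.38 in siMYCN (SE 0.07, limma, adjusted p = 0.000588) and by 0.70 in siHAND2 (SE 0.07, adjusted p = 1.26e-06). PLOD1, its relative, had means of 57.7 ± 0.826, 53.4 ± 3.68 and 52.4 ± 2.12 CPM in siCTR, siMYCN and siHAND2 (SD, n = 3 libraries) and changed by -0.11 and -0.14 (limma, adjusted p = 0.113 and 0.0643). It passed in 3 of 18 alternatives in siMYCN and in 5 of 18 in siHAND2, after both other scalings in each (-0.17 and -0.16 in siMYCN, -0.19 and -0.16 in siHAND2) and also without siMYCN replicate 1 in each and without siHAND2 replicate 1 in siHAND2.

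LOXL2 (chromosome 8, 23296897 to 23425328, minus strand), a LOX relative, stood at 21.1, 21.2 and 16.9 CPM with siCTR, at 17.5, 16.0 and 15.2 with siMYCN and at 26.5, 23.0 and 22.5 with siHAND2. The siHAND2 libraries were above all others, and siCTR replicate 3 lay within the siMYCN range. LOXL2 fell by 0.26 in siMYCN (limma, adjusted p = 0.0287) and rose by 0.27 in siHAND2 (adjusted p = 0.0282), and each call was lost in 6 of 18 alternatives, the rise in siHAND2 after both other scalings (0.22 and 0.23) and without siCTR replicate 3 (0.17) or siHAND2 replicate 1 (0.20). The fall in siMYCN was lost without siCTR replicate 1, siCTR replicate 2, siMYCN replicate 2 or siMYCN replicate 3, with values from -0.37 to -0.21 over the fits that left out 1 library.

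Of 3 tested secreted factors, VEGFA and ADM fell in siHAND2 and STC2 fell in siMYCN. VEGFA (chromosome 6, 43770184 to 43786487, plus strand), the main vessel growth factor under HIF control, stood at 85.3, 81.3 and 85.9 CPM with siCTR, at 79.9, 78.5 and 78.9 with siMYCN and at 56.1, 58.8 and 63.2 with siHAND2. The siHAND2 libraries were far below both other groups, and the siMYCN libraries lay just below siCTR. VEGFA fell by 0.50 in siHAND2 (SE 0.05, limma, adjusted p = 9.43e-07), leaving 70.6% of the siCTR mean. Its change of -0.09 in siMYCN had an adjusted p of 0.176 with limma, and passed after median-ratio rescaling and quantile normalization.

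ADM (chromosome 11, 10305073 to 10307397, plus strand), which encodes the vasodilator peptide adrenomedullin, stood at 3.21, 3.48 and 3.99 CPM with siCTR, at 3.50, 3.45 and 4.15 with siMYCN and at 2.60, 2.31 and 2.20 with siHAND2. Only the siHAND2 libraries were low, without overlap. ADM fell by 0.43 in siHAND2 (SE 0.11, limma, adjusted p = 0.00555), with -0.57 at a pseudocount of 0.1 CPM and -0.22 at 5 CPM. In siMYCN its change was 0.04 (adjusted p = 0.784), of negative sign after both other scalings.

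STC2 (chromosome 5, 173314713 to 173329503, minus strand), the glycoprotein stanniocalcin 2, stood at 2.14, 1.50 and 1.71 CPM with siCTR, at 1.45, 0.805 and 1.23 with siMYCN and at 1.78, 1.79 and 1.63 with siHAND2. The siMYCN libraries lay below the others, with siMYCN replicate 1 close to siCTR replicate 2. Its fall of 0.37 in siMYCN (limma, adjusted p = 0.0422) was lost in 7 of the 17 alternatives that tested it, and about 21 to 70 reads lay behind each value. Its value was -0.60 at a pseudocount of 0.1 CPM and -0.14 at 5 CPM. Without 1 library the value ranged from -0.46 to -0.24, and the call was lost without siCTR replicate 1, siCTR replicate 3, siMYCN replicate 2, siMYCN replicate 3 or siHAND2 replicate 2. ANGPTL4, a lipase inhibitor induced by HIF, had means of 0.697 ± 0.218, 0.889 ± 0.297 and 0.805 ± 0.215 CPM in siCTR, siMYCN and siHAND2 (SD, n = 3 libraries), overlapping in all groups.

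Among genes of stress signalling and energy storage, 4 of 6 fell in siMYCN and 3 of 6 in siHAND2, and none rose. The 4 include PPP1R3C, which entered the test through no siMYCN library. DDIT4 (chromosome 10, 72273924 to 72276036, plus strand), an inhibitor of mTORC1 also known as REDD1, stood at 34.3, 34.3 and 35.9 CPM with siCTR, at 22.3, 22.2 and 21.1 with siMYCN and at 34.4, 31.1 and 33.5 with siHAND2. Only the siMYCN libraries were low, and the siHAND2 and siCTR libraries overlapped. DDIT4 fell by 0.65 in siMYCN (SE 0.06, limma, adjusted p = 3.73e-07), leaving 62.8% of the siCTR mean, and changed by -0.08 in siHAND2 (adjusted p = 0.334).

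GBE1 (chromosome 3, 81489703 to 81761645, minus strand), the glycogen branching enzyme, stood at 22.8, 20.9 and 21.5 CPM with siCTR, at 15.9, 17.1 and 16.0 with siMYCN and at 15.9, 15.3 and 15.6 with siHAND2. All knockdown libraries were below siCTR. GBE1 fell by 0.39 in siMYCN (SE 0.06, limma, adjusted p = 0.000146) and by 0.46 in siHAND2 (SE 0.06, adjusted p = 3.82e-05).

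HILPDA (chromosome 7, 128455849 to 128458418, plus strand), a lipid droplet protein, stood at 37.2, 37.2 and 37.9 CPM with siCTR, at 28.2, 30.9 and 29.1 with siMYCN and at 31.6, 31.9 and 36.2 with siHAND2. Both knockdowns lay below siCTR, with siHAND2 replicate 3 within about 1 CPM of it. HILPDA fell by 0.34 in siMYCN (SE 0.06, limma, adjusted p = 0.000342). Its fall of 0.17 in siHAND2 (adjusted p = 0.0401) was lost in 7 of 18 alternatives, with -0.23 to -0.14 over fits without 1 library, the call being lost without any of the 3 siCTR libraries and without siHAND2 replicate 1 or 2.

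PPP1R3C (chromosome 10, 91628442 to 91633071, minus strand), which targets a phosphatase to glycogen, stood at 1.31, 1.53 and 0.759 CPM with siCTR, at 0.846, 0.460 and 0.548 with siMYCN and at 1.02, 0.717 and 0.992 with siHAND2. The siMYCN and siCTR ranges overlapped. Its fall of 0.44 in siMYCN (limma, adjusted p = 0.0368) was lost without siMYCN replicate 2 (-0.37) or siMYCN replicate 3 (-0.41). Only 13 of 18 alternatives tested it, since it fell below the filter without siCTR replicate 1, siCTR replicate 2 or siHAND2 replicate 1, at 5 CPM and in the fit of those 2 groups alone. Its value was -0.84 at a pseudocount of 0.1 CPM and -0.14 at 5 CPM. ERO1A, an oxidase that forms disulfide bonds in the endoplasmic reticulum, had means of 43.8 ± 2.40, 38.9 ± 2.73 and 35.8 ± 3.61 CPM in siCTR, siMYCN and siHAND2 (SD, n = 3 libraries). It fell by 0.29 in siHAND2 (limma, adjusted p = 0.00578), and its change of -0.17 in siMYCN had an adjusted p of 0.0768. That change passed in 6 of 18 alternatives, among them both other scalings (-0.23 each), the fit of those 2 groups alone, and the fits without siHAND2 replicate 1 or 3, and it was -0.11 at its smallest when 1 library was left out. WSB1, a ubiquitin ligase adaptor, passed in neither knockdown (limma, adjusted p = 0.938 and 0.184).

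Of 5 genes for nuclear proteins, 1 rose in siMYCN and 1 fell in siHAND2. That is 20% in each knockdown, below the 35.9% and 29.9% of all tested genes that passed. RORA (chromosome 15, 60488284 to 61229302, minus strand), an orphan nuclear receptor, stood at 21.2, 19.5 and 21.1 CPM with siCTR, at 27.0, 30.7 and 30.7 with siMYCN and at 14.6, 17.9 and 20.9 with siHAND2. The siMYCN libraries were above all others, and siHAND2 replicate 3 lay within the siCTR range. RORA rose by 0.49 in siMYCN (SE 0.10, limma, adjusted p = 0.000824) and changed by -0.22 in siHAND2 (adjusted p = 0.10), where it passed in 3 of 18 alternatives, among them median-ratio rescaling (-0.27) and the fit without siHAND2 replicate 3 (-0.33). Without siHAND2 replicate 1 its change was -0.09. ZNF395 fell by 0.21 in siHAND2 (limma, adjusted p = 0.00951), from 69.3 ± 2.74 to 59.9 ± 2.33 CPM (SD, n = 3 libraries), with the call lost without siCTR replicate 1 (-0.18). The histone demethylases KDM3A and KDM4B, both oxygen-dependent enzymes, and ANKRD37 passed in neither knockdown, with log2 fold changes between -0.29 (ANKRD37 in siHAND2) and 0.13 (KDM3A in siHAND2). These latter changes passed after quantile normalization for ANKRD37 (-0.37) and without siHAND2 replicate 1 for KDM3A (0.16).

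The carbonic anhydrases, which help tumour cells export acid, were near the limit of detection. CA9, a strongly HIF-dependent gene, stood at 0.581, 0.861 and 0.371 CPM with siCTR, at 0.201, 0.252 and 0.228 with siMYCN and at 0.0988, 0.120 and 0.120 with siHAND2. The 3 groups did not overlap, but the values stood for about 7.8 to 23 reads in siCTR, 5 to 6.7 in siMYCN and 3 to 3.4 in siHAND2. CA9 also overlaps ARHGEF39 on the opposite strand, so reads of that gene may be among these few. Without the filter on low values CA9 changed by -0.38 in siMYCN (limma, adjusted p = 0.00926) and by -0.52 in siHAND2 (adjusted p = 0.00111), on a scale where such low levels depend on the pseudocount. CA12 stood at 0.214, 0.187 and 0.142 CPM with siCTR and at 0.0330, 0.0798 and 0.106 with siHAND2, and it is listed at 0 in all 3 siMYCN libraries. At about 3 to 7 reads per siCTR library and 1 to 3 per siHAND2 library, no fold change is given for it.

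**Figure D3:**
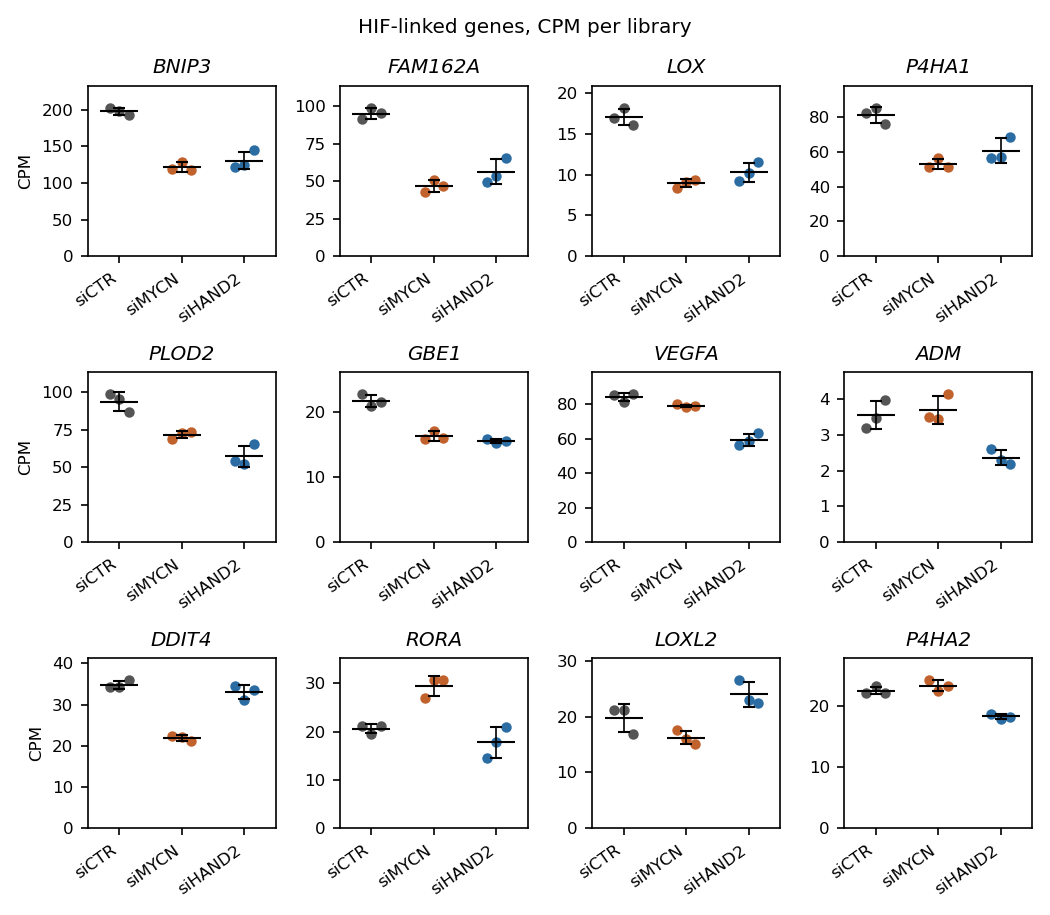
CPM (y axes, from 0, a separate scale for each gene) of 12 HIF-linked genes in the 9 libraries; dots are libraries, horizontal lines are means and bars are SDs over 3 libraries. BNIP3, FAM162A, LOX, P4HA1, PLOD2 and GBE1 lie below siCTR in both knockdowns, VEGFA, ADM and P4HA2 are lowest in siHAND2, and DDIT4 is lowest in siMYCN.

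The direct comparison of siHAND2 with siMYCN tested the difference between the knockdowns in the same fit, where the siCTR libraries contribute to the estimate of the spread and to the filter on low values. Of the 31 genes, 5 were higher and 7 lower in siHAND2, where 11.4% of all tested genes were higher, 15.5% lower and 26.9% passed in either direction. The libraries of the knockdowns did not overlap for 5 higher and 9 lower genes (17.1% and 21.6% of all tested genes). The 7 genes that passed as lower were HIF1A, EGLN3, ADM, VEGFA, P4HA2, PLOD2 and RORA. The 5 that passed as higher were EPAS1, FAM162A, LOXL2, DDIT4 and HILPDA. The libraries of FAM162A overlapped between the knockdowns. STC2 was higher, and EGLN1 and ZNF395 lower, without overlap but did not pass. EPAS1 differed by 1.85 (SE 0.11, limma, adjusted p = 2.8e-09) and HIF1A by -0.50 (SE 0.04, adjusted p = 2.86e-08), with no overlap between the libraries. RORA differed by -0.71 (adjusted p = 3.11e-05), DDIT4 by 0.57 (adjusted p = 7.91e-07), LOXL2 by 0.54 (adjusted p = 0.000225), ADM by -0.48 (adjusted p = 0.00294) and VEGFA by -0.41 (adjusted p = 7.98e-06). P4HA2 differed by -0.33 (adjusted p = 0.000337) and PLOD2 by -0.32 (adjusted p = 0.00261). These 9 calls held under every alternative that tested the gene.

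The other 3 calls between the knockdowns were close to the threshold. FAM162A differed by 0.25 (limma, adjusted p = 0.0285), lost without siMYCN replicate 1, siMYCN replicate 3 or siHAND2 replicate 3, with 0.14 to 0.34 when any 1 library was left out. EGLN3 differed by -0.25 (adjusted p = 0.0377), lost in 8 of 18 alternatives (-0.30 to -0.18 when 1 library was left out), and HILPDA by 0.17 (adjusted p = 0.0453), lost in 10 (0.11 to 0.20). Leaving out siMYCN replicate 3 or siHAND2 replicate 3 left 3 genes higher in siHAND2 in place of 5. BNIP3, LOX, P4HA1 and GBE1, low in both knockdowns, differed between them by 0.10, 0.18, 0.19 and -0.06 (adjusted p = 0.221, 0.13, 0.0578 and 0.492), each with an SE of 0.06 to 0.08. P4HA1 passed in 6 of the 18 alternatives, and LOX passed without siHAND2 replicate 1 (0.25). Without siHAND2 replicate 3 the differences of BNIP3, LOX and P4HA1 were 0.02, 0.10 and 0.09, and without siMYCN replicate 2 that of GBE1 was -0.03. Values missing the threshold do not show that the knockdowns act alike on these genes.

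**Figure D4:**
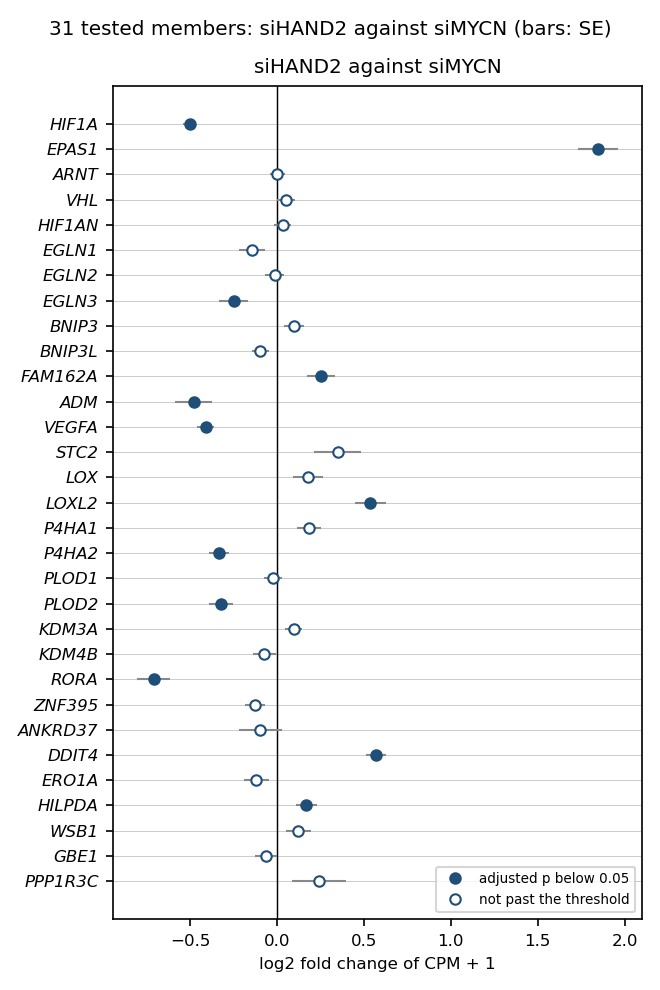
Log2 fold change of CPM + 1 (x axis) in siHAND2 against siMYCN for the 31 tested genes (rows); points are limma estimates, bars are SEs, and filled points passed an adjusted p of 0.05. EPAS1 lies at 1.85 and RORA, the lowest, at -0.71.

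Further genes of the pathway were counted from 3 lists, also chosen with earlier results of these data known, so the counts are descriptive only. Of 21 glycolytic HIF targets, 16 fell and 2 rose in siMYCN, where 11.4% of all tested genes fell and 24.5% rose. In siHAND2 17 of the 21 fell and none rose, where 11.8% and 18.1% of all did. The median log2 fold changes of the 21 were -0.35 and -0.42. The largest falls were those of PDK1, which diverts pyruvate from mitochondria, by 0.80 in siMYCN and 0.57 in siHAND2 (limma, adjusted p = 3.43e-07 and 9.83e-06), and of the hexokinase gene HK2, by 0.77 in siHAND2 (adjusted p = 6.27e-09) and 0.74 in siMYCN (adjusted p = 3.59e-08). The glucose transporter gene SLC2A1 fell by 0.73 in siHAND2 (adjusted p = 2.46e-08) and 0.53 in siMYCN (adjusted p = 1.41e-06). The lactate exporter gene SLC16A3 rose by 0.41 in siMYCN (adjusted p = 0.00224), and ENO2 by 0.15 (adjusted p = 0.0185). Their changes in siHAND2 were 0.09 and 0.05 (adjusted p = 0.499 and 0.459).

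Of 19 tested genes for partners, coactivators and turnover factors of HIF, 5 rose and 3 fell in siMYCN, where 24.5% of all tested genes rose and 11.4% fell. In siHAND2 6 rose and 2 fell, where 18.1% and 11.8% of all did, with median changes of 0.06 in each. ARNT2, the neuronal relative of ARNT, rose by 0.31 in siMYCN and 0.33 in siHAND2 (limma, adjusted p = 0.000757 and 0.000546), and the coactivator gene CREBBP by 0.27 and 0.32 (adjusted p = 0.00055 and 0.000158). RACK1, a ribosomal scaffold that can promote HIF1A turnover, fell by 0.50 in siMYCN and 0.24 in siHAND2 (adjusted p = 2.6e-07 and 0.00037), and the ubiquitin ligase gene SIAH2 fell by 0.24 and 0.21 (adjusted p = 0.00453 and 0.0112).

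CITED2, an HIF-induced inhibitor that competes with HIF for its coactivators, moved in opposite directions. Its mean was 6.67 ± 0.0579 CPM in siCTR, 4.87 ± 0.132 CPM in siMYCN and 11.1 ± 0.984 CPM in siHAND2 (SD, n = 3 libraries). It fell by 0.39 in siMYCN (limma, adjusted p = 0.00165) and rose by 0.65 in siHAND2 (adjusted p = 1.53e-05), and the direct comparison gave 1.04 (adjusted p = 5.78e-08).

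Among 27 tested genes of a further hypoxia-linked list, 7 fell and 5 rose in siMYCN, where 11.4% of all tested genes fell and 24.5% rose. In siHAND2 10 fell and 4 rose, where 11.8% and 18.1% of all did. Medians over the list were -0.01 in siMYCN and -0.02 in siHAND2. BHLHE40, a transcriptional repressor, fell by 1.20 in siMYCN and 0.80 in siHAND2 (limma, adjusted p = 1.21e-06 and 6.85e-05). The mitochondrial adenylate kinase gene AK4 fell by 0.63 in siMYCN and 0.70 in siHAND2 (adjusted p = 6.03e-07 and 1.33e-07). The cyclin gene CCNG2 rose by 0.37 in siMYCN and 0.48 in siHAND2 (adjusted p = 0.000164 and 1.49e-05), and the chemokine receptor gene CXCR4 rose by 0.31 and 0.22 (adjusted p = 1.18e-05 and 0.000403). IGFBP3, which binds insulin-like growth factors, rose from 15.1 ± 2.21 to 56.2 ± 8.77 CPM in siHAND2 (SD, n = 3 libraries), by 1.83 on the log2 scale (adjusted p = 7.07e-09). In siMYCN its change was 0.28 (adjusted p = 0.0716). The plot of shares by list sets these counts beside those over all tested genes.

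**Figure D5:**
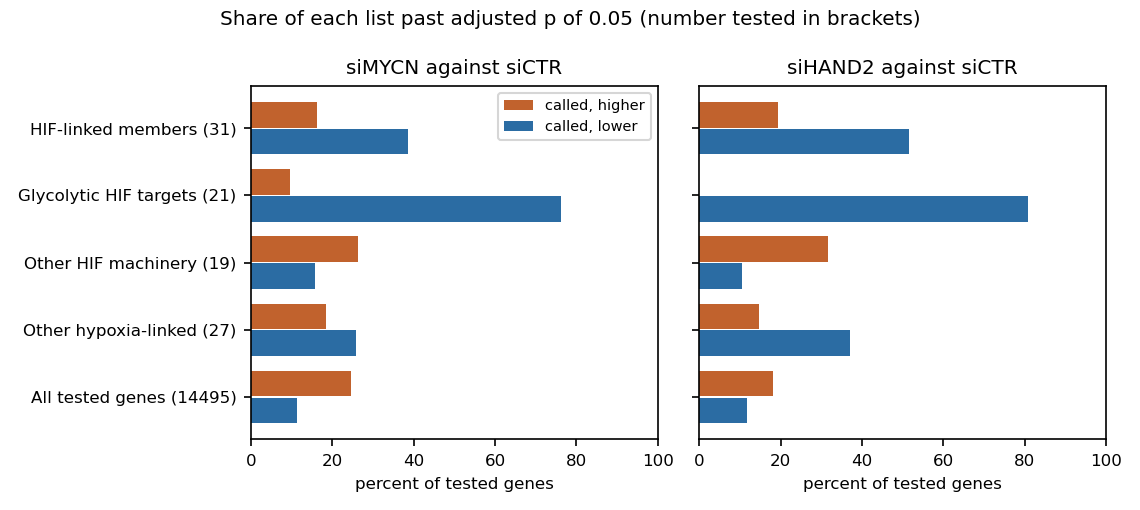
Percent of tested genes (x axis, 0 to 100) that passed an adjusted p of 0.05 with a higher (orange) or lower (blue) level in siMYCN (left) and siHAND2 (right) against siCTR, for the HIF-linked genes, 3 other lists and all tested genes, with the number tested in brackets. In both knockdowns the falls exceed the rises among the HIF-linked genes and the glycolytic targets, and the rises exceed the falls over all tested genes.

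The siHAND2 replicate 3 library was the highest of its group for 12 of the 16 genes that fell in siHAND2. The same count over all tested genes was not taken. Without this library, 17 of 31 genes fell and 6 rose in siHAND2, again with no share over all tested genes beside it. Neither count is therefore read as a trait of these genes. This library also correlated least with the others of its group (Pearson r of log2(CPM + 1) 0.994 and 0.995 across genes, which are not independent replicates, beside 0.9965 to 0.998 for the other pairs of all groups).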

How the data were processed

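Total RNA of 9 LAN5 libraries was sequenced, per the labels. The authors deposited 1 table of CPM values, in which every value carries a constant of 0.0001. Reads were aligned with STAR 2.5.1, and Partek is also named, per the submitters' processing notes. The counting rule, its use of strand, the annotation and filters are not given in the sources used here. Those notes name hg19 and GRCh37, but 91.4% of 18213 gene starts lay within 5000 bases of GRCh38 (GRCh37: 5.62%), so coordinates are given as GRCh38. Depth was estimated from the smallest steps of low CPM values. Only 78.9% to 80.3% of values up to 20 steps were whole within 0.02, so no count model was used. Counting error is all that read numbers cover.

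Tests used limma 3.58.1 in R 4.3.3 on log2(CPM + 1) with an intensity trend, 1 mean per group over 9 libraries and a filter that left out 10589 genes. A fold change on this scale understates that of low genes. The model was also run on simulated libraries with 200 genes changed in siMYCN and the same spread setting (0.005) for every gene. The spread between the real replicates was uneven, so that run does not vouch for the tests here. Alternatives tried were a pseudocount of 0.1 or 5, leaving the filter out, a 5 CPM filter, median-ratio rescaling, quantile normalization, 2-group fits, no trend, the replicate number as a block, and each library left out. The 34 genes and the lists were chosen with earlier results of these data known. Values of every library are given for the HIF subunits, the sensors and each gene that passed with a log2 change of at least 0.3, and of other lists up to the 2 largest changes in each direction are named. Of the 34 gene intervals, 17 overlap another gene of the table, 12 of them 1 on the opposite strand.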

Additional observations from a re-analysis of the deposited data

How the results depend on the processing

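No change that passed in the reported fit reversed its direction under any of the 18 alternatives. Of the 17, 22 and 12 calls (siMYCN against siCTR, siHAND2 against siCTR, siHAND2 against siMYCN), 11, 15 and 9 held under every alternative that tested the gene.

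After median-ratio rescaling 3 genes rose in siMYCN and 2 in siHAND2. Between the knockdowns 3 were higher in siHAND2 when no gene was filtered out, and 3 in a fit without the intensity trend. Over the fits leaving out 1 library, 11 to 18 genes passed in siMYCN (3 to 6 higher, 8 to 13 lower), fewest without siMYCN replicate 3. The ranges were 18 to 23 in siHAND2 and 10 to 13 between the knockdowns (3 to 7 higher; 3 without siMYCN replicate 3 or siHAND2 replicate 3). The cause was not tested.

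Signs turned only for changes that did not pass. In siMYCN, median-ratio rescaling gave ADM -0.0039, P4HA2 -0.0115, KDM3A -0.0257 and WSB1 -0.0514, and quantile normalization gave -0.0279, -0.0265, -0.0242 and -0.0526. In siHAND2 they gave KDM4B -0.0469 and -0.0144. Between the knockdowns quantile normalization gave EGLN2 0.0215 and PLOD1 0.0013. Leaving out 1 library gave -0.0039 to 0.1967 for EPAS1, -0.0226 (without siCTR replicate 1: -0.0113) to 0.1107 for ADM and -0.043 (without siCTR replicate 2: -0.0237) to 0.0468 for WSB1 in siMYCN. In siHAND2 it gave -0.0942 to 0.0709 (without siHAND2 replicate 3: 0.0077) for STC2 and -0.0599 (without siCTR replicate 3: -0.0474) to 0.0725 for KDM4B. Between the knockdowns it gave -0.0033 and -0.0015 to 0.0077 for ARNT, -0.008 to 0.0923 for VHL, -0.0424 to 0.0336 (and 0.0082) for EGLN2 and -0.0676 to 0.0281 (and 0.0061) for PLOD1.

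With the replicate block, 19, 25 and 15 genes passed. Among them were VHL and ERO1A in siMYCN, PLOD1, KDM3A and RORA in siHAND2, and P4HA1, STC2 and ZNF395 between the knockdowns. Shares over all tested genes were not taken for this fit or for those without 1 library. Such counts are therefore not read as traits of these genes. The labels do not say whether same-numbered libraries were paired. Their deviations correlated between -0.04 and 0.305, and not every pair exceeded 0.1. Those of unlike numbers correlated between -0.30 and 0.14. Every library correlated best with its own number between siCTR and siMYCN, a hint from the data and not the design. In the other 2 comparisons the libraries numbered 1 and 3 did so, but not every library numbered 2. A shared batch was not tested. Genes near 1 CPM (CA9, CA12, ANGPTL4, PPP1R3C) rest on few reads, which limits what can be detected.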
